A study of Mus musculus with 4 samples.

Results

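The genes examined here are 9 that define or modulate neurons of the striatum: the dopamine receptors Drd1 and Drd2, the adenosine receptor Adora2a, the opioid receptors Oprm1, Oprd1 and Oprk1, the opioid peptide precursors Penk and Pdyn, and the phosphatase regulator Ppp1r1b. They were taken by symbol from the expression tables, with no threshold on their values, and all 9 were among the 34968 symbols listed in each of 4 libraries. The libraries are bulk RNA-seq of tdTomato+ neurons sorted from embryoid bodies after 12 days of differentiation, with 2 from the line N/D and 2 from the line N/D/S. Values are TPM, the share of a library's transcripts that a gene takes after correction for transcript length, so that levels of different genes can be compared. Both lines descend from one mouse ES cell line, of strain C57/BL6 per the labels, that carries Dlx6a-Cre and the Cre-dependent tdTomato reporter Ai9, and both express Nkx2-1 and the transactivator tTA2S from a Nestin construct. N/D received Dlx2 under a tetracycline-responsive element and N/D/S received Dlx2 together with V5-tagged St18 under the same element. All cultures were given the Wnt inhibitor XAV-939 and then the Sonic hedgehog agonist SAG. Lines were grown from picked clones, and neither the number of clones behind each pair of libraries nor whether replicates were separate cultures is stated, so p-values measure only the spread between these libraries.

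In the striatum, medium spiny projection neurons fall into a direct pathway population, which carries Drd1 and releases dynorphin from Pdyn and substance P, and an indirect pathway population, which carries Drd2 and Adora2a and releases enkephalin from Penk. Drd1 and Adora2a raise cyclic AMP and Drd2 lowers it, and the phosphoprotein made by Ppp1r1b, known as DARPP-32, turns that signal into inhibition of protein phosphatase 1. These neurons arise mainly in the lateral ganglionic eminence, whereas Nkx2-1 marks the medial one. The comparison of N/D with N/D/S asks what St18 changes in neurons of medial ganglionic eminence type.

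The labels were first checked on the induced factor. The label N/D goes with 28.5 and 26.6 TPM of St18 (replicates 1 and 2), and the label N/D/S with 44.4 and 15.9 TPM. The library labelled N/D/S replicate 2 was thus below both labelled N/D, and every direction below rests on the labels, which the level of St18 does not bear out in that library. The factors shared by both lines were present throughout, Nkx2-1 at 16.5 to 48.6 TPM and Dlx2 at 71.1 to 259 TPM. Whether the TPM of St18 include reads of the introduced copy is not stated. The library labelled N/D replicate 1 stood apart, with 13426 symbols above 0 against 17118 to 20750 in the others. Of 6139 genes that reached 10 TPM in each other library, 613 were listed at 0 in it, while the same count was at most 2 for any other library. A value of 0 there is therefore given only as a listing. The differences of Penk, Drd2 and Drd1 and the list medians are given with and without that library. Pan-neuronal markers (Tubb3, Stmn2, Map2, Snap25, Dcx) summed to between 2915 and 4604 TPM, and GABAergic markers (Gad1, Gad2, Slc32a1, Dlx1, Dlx5, Dlx6) to between 392 and 987 TPM, with none of either list at 0 in any library.

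Of the 9 genes, Penk alone exceeded 5 TPM in any library. Penk, which encodes the precursor of the enkephalins, had 50.4 TPM in N/D replicate 2, and 35.7 and 7.61 TPM in replicates 2 and 1 of N/D/S, but it was listed at 0 in N/D replicate 1. By rank, 9.7% of symbols were higher than Penk in N/D replicate 2 and 9.6% in N/D/S replicate 2, against 25.8% in N/D/S replicate 1. The lines overlapped, and the level of Penk differed within each line by more than it did between both replicate 2 libraries. Pdyn, the precursor of the dynorphins, had 0.61 TPM in N/D replicate 2, and 0.36 and 1.96 TPM in replicates 1 and 2 of N/D/S, and it was also listed at 0 in N/D replicate 1. In the 3 libraries where both peptide genes were above 0, Penk TPM exceeded Pdyn TPM by a factor of 82.8 in N/D replicate 2, and of 21.2 and 18.2 in replicates 1 and 2 of N/D/S.

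**Figure D1:**
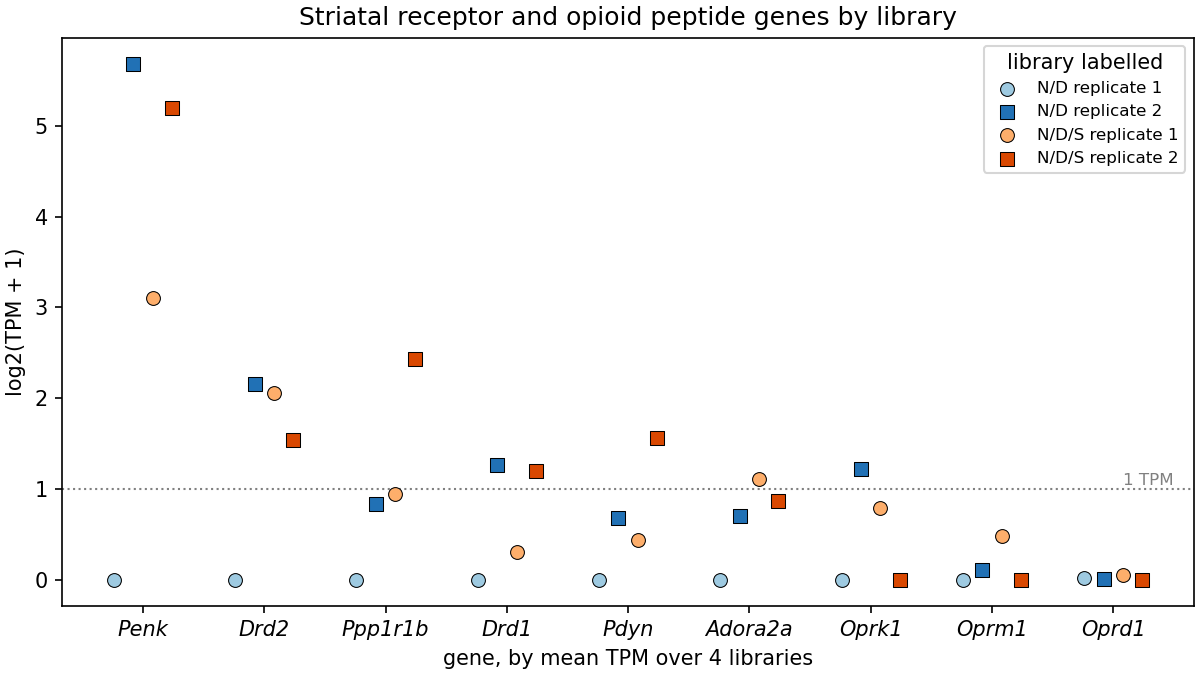
Level of each of the 9 genes, as log2(TPM + 1), in each library, with genes ordered by mean TPM and 1 point per library (circles for replicate 1, squares for replicate 2). Penk, at 7.61 to 50.4 TPM, and Drd2, at 1.90 to 3.46 TPM, are the only genes above 1 TPM (dotted line) in 3 libraries, and the points of N/D replicate 1 lie at or next to 0 for every gene.

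Among the receptors, Drd2 was the most abundant. Drd2, whose product couples to inhibitory G proteins, had 3.46 TPM in N/D replicate 2, and 3.17 and 1.90 TPM in replicates 1 and 2 of N/D/S. Drd1, coupled to stimulatory G proteins, had 1.40 TPM in N/D replicate 2, and 0.24 and 1.30 TPM in replicates 1 and 2 of N/D/S. Both were listed at 0 in N/D replicate 1, and in each of the other libraries Drd2 was above Drd1, by a factor of 2.48 in N/D replicate 2, and of 13.2 and 1.47 in replicates 1 and 2 of N/D/S. The levels of Drd1 and of Drd2 overlapped between the lines. Adora2a, which is found with Drd2 on indirect pathway neurons, stayed near 1 TPM, with 0.63 TPM in N/D replicate 2 and 1.16 and 0.83 TPM in replicates 1 and 2 of N/D/S. Ppp1r1b had 4.41 TPM in N/D/S replicate 2, against 0.93 TPM in N/D/S replicate 1 and 0.79 TPM in N/D replicate 2. Both Adora2a and Ppp1r1b were listed at 0 in N/D replicate 1.

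By mean TPM the opioid receptors were lower still, but Oprk1 was above Adora2a in N/D replicate 2 and above Drd1 in N/D/S replicate 1. Oprk1, the receptor for dynorphin, had 1.34 TPM in N/D replicate 2 and 0.73 TPM in N/D/S replicate 1, but 0 was listed for it in both remaining libraries. Oprm1, which binds endorphin and enkephalins, reached 0.40 TPM in N/D/S replicate 1 and 0.079 TPM in N/D replicate 2, with 0 listed in the remaining 2 libraries. Oprd1, the main receptor for enkephalin, did not exceed 0.043 TPM, and was the only one of the 9 genes with a value above 0 in N/D replicate 1, at 0.012 TPM. For each of these 3 receptors the lines overlapped. Ordered by mean TPM over the 3 libraries other than N/D replicate 1, the genes ran Penk (31.3), Drd2 (2.84), Ppp1r1b (2.05), Drd1 (0.98), Pdyn (0.98), Adora2a (0.87), Oprk1 (0.69), Oprm1 (0.16) and Oprd1 (0.016). Only Penk and Drd2 were neighbours in this order whose ranges over these libraries did not overlap. TPM keep no read counts, so the depth is unknown and no detection limit or interval can be set on the low values.

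The listings at 0 in N/D replicate 1 were read against other genes of a like level. Of 3923 genes whose mean TPM in the other 3 libraries was within 2-fold of that of Penk, 16.1% were listed at 0 in N/D replicate 1. For genes at the level of Drd2 the share was 51.0%, and for the other 7 genes it was between 55.0% and 72.2%. In 6 of the 9 genes N/D replicate 1 was below every other library, against 39.6% of the 23608 genes above 0 in at least 1 library. Among the 12975 genes that reached 1 TPM in 2 libraries or more, the share was 56.3%.

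In annotation GENCODE M21 on GRCm38, the build named in the submitters' processing notes, Penk and Oprd1 lie on chromosome 4 and Adora2a and Oprm1 on chromosome 10, and the others each on a chromosome of their own. Penk spans positions 4133531 to 4138819 of chromosome 4 on the minus strand, and some of its exon sequence overlaps that of A830012C17Rik on the opposite strand. Ppp1r1b, on the plus strand of chromosome 11 from 98348404 to 98357796, overlaps exons of 1700003D09Rik in the same way, and Oprm1 those of Ipcef1. Whether the pseudoalignment used strand is not stated, so reads in the overlaps cannot be assigned with certainty. Drd2 occupies 49340627 to 49408177 on the plus strand of chromosome 9 with 1 annotated transcript, and Drd1 54051183 to 54055705 on the minus strand of chromosome 13 with 3. Oprm1 has 31 annotated transcripts, the most of the 9.

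RefSeq start sites on GRCm38.p6 were available for 5 of the genes (Pdyn, Oprd1, Drd2, Oprm1 and Drd1) and not for Penk, Adora2a, Oprk1 and Ppp1r1b. The 250 bases before the start are shown for Drd2, the most abundant receptor, at chr9:49340153-49340402 on the plus strand, and for Oprd1, the least abundant, at chr4:132144487-132144736 on the minus strand, each written 5′ to 3′ along the gene. Capitals mark CG dinucleotides, the sites of DNA methylation in mammals, which were searched as the letters CG.
Drd2: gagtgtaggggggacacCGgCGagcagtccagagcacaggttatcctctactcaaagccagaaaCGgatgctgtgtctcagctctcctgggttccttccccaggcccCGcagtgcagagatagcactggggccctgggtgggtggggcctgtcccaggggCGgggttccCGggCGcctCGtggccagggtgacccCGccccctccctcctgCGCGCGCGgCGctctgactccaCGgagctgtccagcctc
Oprd1: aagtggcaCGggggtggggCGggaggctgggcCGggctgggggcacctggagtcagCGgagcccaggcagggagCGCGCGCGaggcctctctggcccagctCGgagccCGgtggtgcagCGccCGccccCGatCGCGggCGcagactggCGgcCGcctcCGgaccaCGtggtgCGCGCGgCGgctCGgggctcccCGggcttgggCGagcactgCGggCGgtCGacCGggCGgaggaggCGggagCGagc
The Drd2 window held 15 CG dinucleotides at 68.8% GC, and the Oprd1 window 34 at 80.0% GC. A window of this length with at least 15 CG dinucleotides, the count of Drd2 itself, was found at 27.3% of the 32851 RefSeq starts, whose median was 6. It was found at 3 of the 9 starts of these 5 genes, among which windows of Oprm1 overlap. Both windows shown were thus above that median, while Drd2 was above 1 TPM in 3 libraries and Oprd1 below 0.05 TPM in all 4. Methylation and factor binding were not measured.

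The lines were compared by limma, a linear model per gene with a moderated variance, on log2(TPM + 1) of the 12975 genes that reached 1 TPM in 2 libraries or more. Only Penk, Drd2 and Drd1 passed that filter, and the other 6 genes have values but no test in this fit. None of the 3 passed an adjusted p of 0.05, where limma with Benjamini-Hochberg adjustment called 0 of 12975 genes (0.0%). Without adjustment 3 genes were past 0.05 with higher and 5 with lower values in N/D/S, and Penk, Drd2 and Drd1 were not among them. The log2 difference of Penk in libraries as labelled, N/D/S minus N/D, was 1.31 (standard error 1.88, 95% interval −3.13 to 5.75, limma unadjusted p = 0.508 and Benjamini-Hochberg adjusted p = 1), smaller than its residual standard deviation between libraries of a line, 3.03. For Drd2 it was 0.72 (standard error 1.12, interval −1.93 to 3.37, limma adjusted p = 1) and for Drd1 0.12 (standard error 1.04, interval −2.33 to 2.58, limma adjusted p = 1). The median of all genes tested was 0.26. The intervals spanned large changes in either direction, so these tests do not show that the lines had like levels.

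Without N/D replicate 1, the signs of all 3 tested genes turned. The log2 difference was then −1.53 for Penk (interval −3.78 to 0.72, limma adjusted p = 1), −0.36 for Drd2 and −0.51 for Drd1, beside a median of −0.29 for all genes. Without N/D replicate 2, which leaves the library listed at 0 as the single N/D sample, Penk was at 4.15 (interval 1.90 to 6.40, limma adjusted p = 0.00417). That fit called 2213 genes higher and 160 lower in N/D/S and assumes that the lone N/D library varies like the N/D/S libraries. Leaving out N/D/S replicate 1 or 2 gave 2.36 and 0.26 for Penk with a limma adjusted p of 1. Within a replicate number, Penk was above its N/D partner in N/D/S of replicate 1 and below it in replicate 2. A two-sided exact permutation test of 2 against 2 cannot give a p below 0.333.

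**Figure D2:**
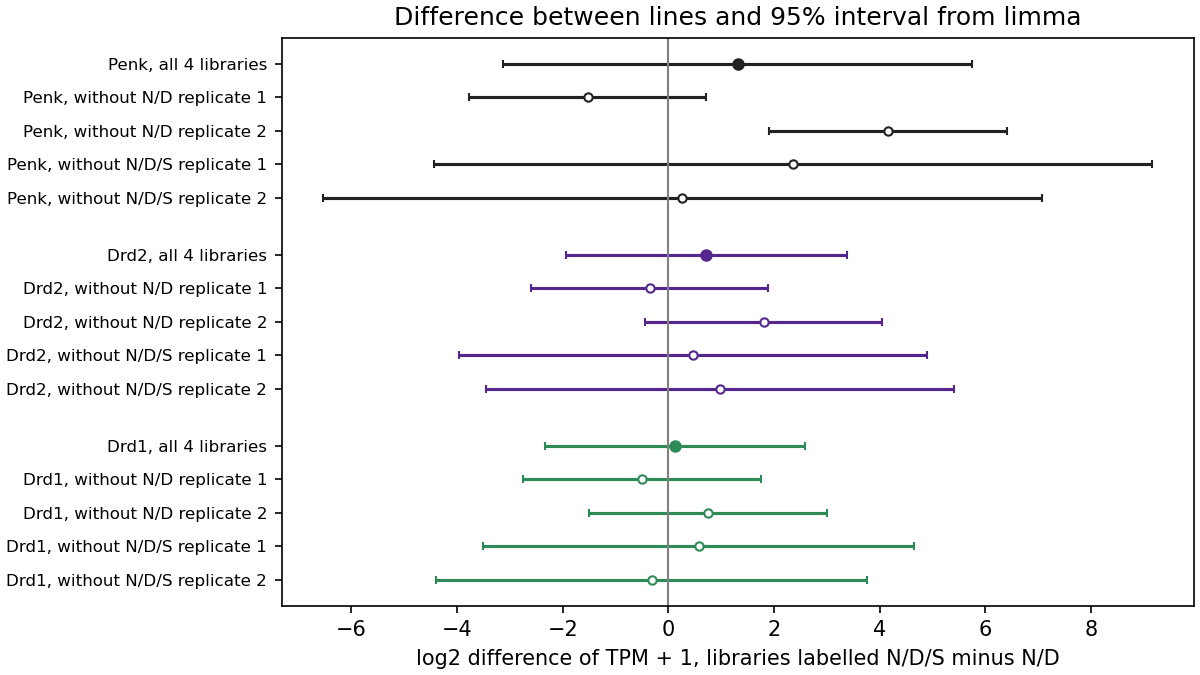
Log2 difference of TPM + 1 (N/D/S minus N/D as labelled) for the 3 tested genes, with 95% intervals from limma, for all 4 libraries (filled points) and with each library left out (open points). The interval of Penk lies above 0 only without N/D replicate 2, at 1.90 to 6.40, and all 3 genes lie below 0 without N/D replicate 1.

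For 2 of the 9 genes, Adora2a and Ppp1r1b, both N/D/S libraries were above both N/D libraries, and for 0 they were below. As 8 of the 9 were listed at 0 in N/D replicate 1, those 8 could not be below. Whether they were above was set by N/D replicate 2 alone, so these counts do not show a lean upwards. Over the 23608 genes above 0 in at least 1 library, 7.51% were separated upwards in this way and 6.54% downwards. When all of these genes were fitted, so that each of the 9 had a test, the log2 difference was 1.27 for Ppp1r1b (standard error 0.74, interval −1.20 to 3.74, limma unadjusted p = 0.191) and 0.64 for Adora2a (standard error 0.33, interval −0.48 to 1.75, limma unadjusted p = 0.159), each with a Benjamini-Hochberg adjusted p of 1. Without N/D replicate 1, both stayed above the remaining N/D library, by 0.85 and 0.28 on the log2 scale. Without N/D/S replicate 2, which holds its highest level, the difference of Ppp1r1b was 0.53, and over all libraries left out in turn it ranged up to 2.02, while that of Adora2a ranged from 0.28 to 0.99. Pdyn was at 0.66, Oprm1 at 0.19, Oprd1 at 0.017 and Oprk1 at −0.22, and their limma adjusted p was 1 as well. With 1 library left out, Pdyn ranged from 0.10 (without N/D/S replicate 2) to 1.22 (without N/D/S replicate 1). Oprk1 ranged from −0.83 without N/D replicate 1 to 0.39 without N/D replicate 2, and was also above 0, at 0.18, without N/D/S replicate 2. The signs of Oprm1 and Oprd1 turned when N/D/S replicate 1 was left out, to −0.055 and −0.013, and without N/D/S replicate 2 they were at 0.43 and 0.047. The direction of these 3 opioid receptor genes therefore rested on single libraries.

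Some genes were separated by replicate number. Penk, Drd1 and Pdyn were higher in both replicate 2 libraries than in both replicate 1 libraries, which is 3 of 9 genes against 12.8% of the 23608. Oprd1 was separated the other way, by 0.012 and 0.043 TPM against 0.006 and 0 TPM, where the share over all genes was 13.3%. For Penk, Drd1 and Pdyn, 1 of the 2 low libraries is N/D replicate 1, in which they are listed at 0. Markers of other cells moved with these genes, although the libraries were made from cells sorted for tdTomato, a gate for the Dlx6a-Cre lineage, and the same zeros enter their separation. Of 7 glial markers 5 and of 4 pluripotency markers 4 were higher in both replicate 2 libraries. The glial markers (Gfap, Aqp4, Aldh1l1, Mbp, Mog, Pdgfra, Olig2) summed to 0 TPM in N/D replicate 1, with all 7 listed at 0, to 127 TPM in N/D replicate 2, and to 13.6 and 44.4 TPM in replicates 1 and 2 of N/D/S. Mbp, a myelin protein gene and the most abundant of them, had 0, 81.1, 11.0 and 19.8 TPM in the same order, and Gfap and Aqp4, astrocyte genes (Aqp4 named after its values were seen), were at 0 in N/D/S replicate 1. The pluripotency markers (Pou5f1, Nanog, Zfp42, Dppa5a) summed to 0.25 TPM in N/D replicate 1, 184 TPM in N/D replicate 2, and 3.50 and 291 TPM in replicates 1 and 2 of N/D/S, of which Dppa5a made up 164 and 266 TPM in the replicate 2 libraries. Penk is known in astrocytes and other cells besides neurons. The part of these other cells in the level of Penk, Drd1 and Pdyn was not tested, and in bulk RNA fewer cells of a type and less RNA per cell cannot be told apart.

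Neuronal and progenitor markers were counted in the same way. Higher in both replicate 1 libraries were 1 of 6 GABAergic, 2 of 5 pan-neuronal, 2 of 5 glutamatergic and 3 of 8 progenitor markers, beside 13.3% of all genes, and of each list 0 were higher in both replicate 2 libraries, beside 12.8%. Gad2, a GABA synthesis enzyme, was higher in both replicate 1 libraries, at 141 and 169 TPM against 83.7 and 42.0 TPM. The other GABA enzyme gene, Gad1, was not separated by replicate number, at 27.4 and 51.6 TPM in the replicate 1 libraries and 97.8 and 31.8 TPM in the replicate 2 libraries. Stmn2, a growth cone protein of neurons, had 1631 and 1175 TPM in the replicate 1 libraries and 853 and 606 TPM in the replicate 2 libraries. Vim, the most abundant progenitor marker, had 219 and 150 TPM in replicate 1 and 123 and 78.3 TPM in replicate 2 (N/D first). The leading glutamatergic marker was likewise higher in replicate 1. Slc17a6, the vesicular glutamate transporter of subcortical neurons, had 13.8 and 18.4 TPM in replicate 1 and 2.44 and 0.73 TPM in replicate 2.

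By pattern over the 4 libraries, the tested genes most like Penk were Tceal6, Vax1 and Mgst1, at Euclidean distances of 0.36, 0.48 and 0.57 in centred log2(TPM + 1). Vax1, a homeobox factor of the ventral forebrain, was listed at 0 in N/D replicate 1 and had 32.8 TPM in N/D replicate 2, and 7.06 and 26.7 TPM in replicates 1 and 2 of N/D/S. With only 4 libraries and 12975 genes, close matches of this kind describe the libraries.

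The other receptors of the same families were mostly as low as the 9 genes. Of Drd3, Drd4, Drd5, Adora1, Adora2b, Adora3 and Oprl1, only Oprl1 passed the filter on low values, and Drd3, named after its values were seen, was listed at 0 in every library. Oprl1, the receptor for nociceptin, had 47.1 and 45.0 TPM in replicates 1 and 2 of N/D, and 59.4 and 25.7 TPM in those of N/D/S. It was therefore present in N/D replicate 1, where the 3 classical opioid receptors were at 0 or 0.012 TPM. The log2 difference of Oprl1 between the lines was −0.23 (standard error 1.01, limma adjusted p = 1). Its sign turned, to 0.36, once N/D/S replicate 2 was dropped, whereas dropping N/D/S replicate 1 gave −0.82. Dropping replicate 1 or 2 of N/D left it at −0.20 or −0.26. Pnoc, the precursor of the ligand of Oprl1, was likewise present in all 4, with 105 and 53.6 TPM in N/D and 50.0 and 53.0 TPM in N/D/S. Its log2 difference was −0.54 (standard error 0.99, limma adjusted p = 1) and rested on N/D replicate 1, as N/D replicate 2 was close to both N/D/S libraries. Pnoc TPM exceeded Penk TPM by a factor of 1.06 in N/D replicate 2, and of 6.58 and 1.48 in replicates 1 and 2 of N/D/S. Pomc, the precursor of endorphin, named here after its values were seen, had 1.34 and 14.5 TPM in N/D and 10.8 and 17.8 TPM in N/D/S.

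**Figure D3:**
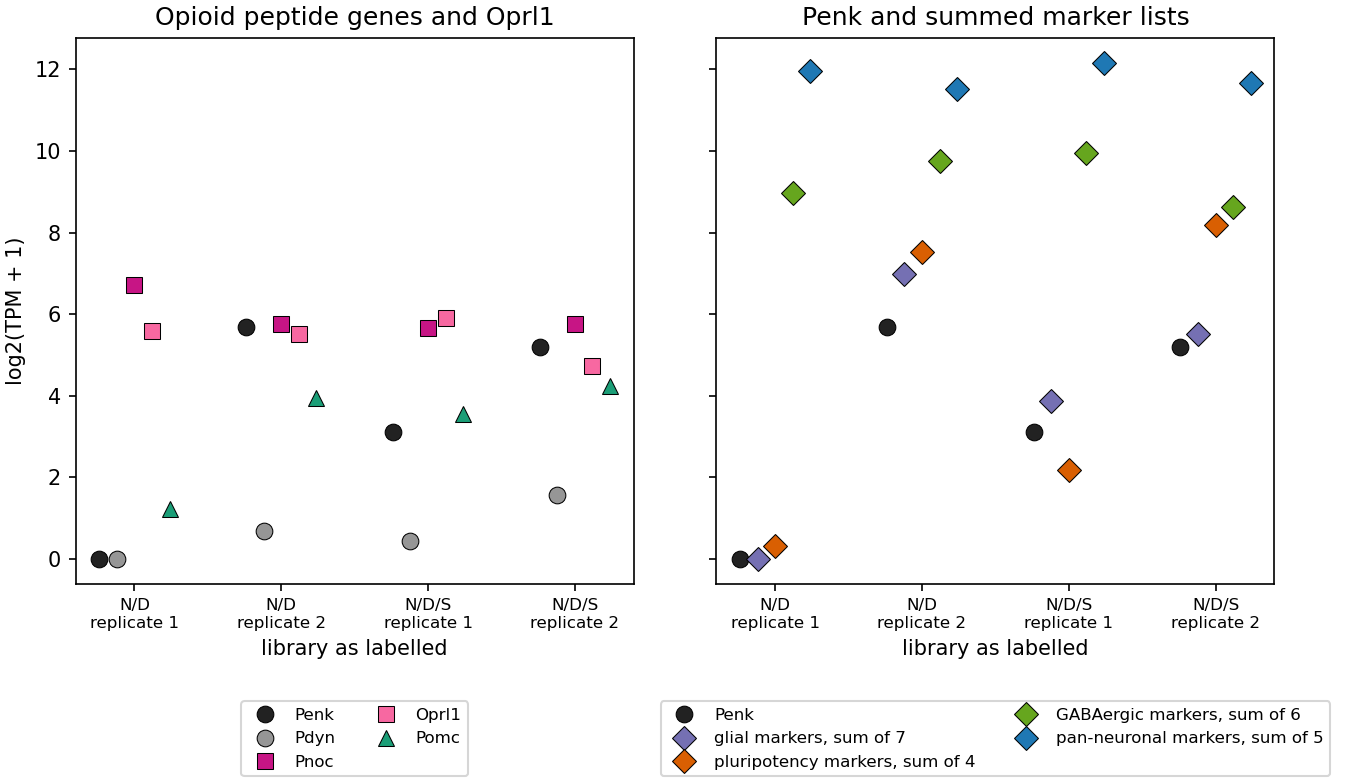
Levels as log2(TPM + 1) in the 4 libraries, of the opioid peptide genes and the nociceptin receptor gene Oprl1 (left) and of Penk beside the summed TPM of 4 marker lists (right), with 1 point per library and gene or list. Pnoc and Oprl1 stay between 25.7 and 105 TPM in all libraries, while Penk is at 0 in N/D replicate 1 and, like the glial and pluripotency sums, lower in N/D/S replicate 1 than in both replicate 2 libraries.

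Among genes for the making of neuropeptides, Cpe, Scg5 and Pcsk1n were above Penk and Pdyn in every library, while Pcsk1, named after its values were seen, was listed at 0 in N/D replicate 1 and had 1.71 to 2.88 TPM elsewhere. Of 8 genes in this list (Pomc, Pnoc, Pcsk1, Pcsk2, Cpe, Scg5, Pcsk1n and Pam) all passed the filter, 0 were called in either direction, and the median log2 difference was 0.10, or −0.14 without N/D replicate 1. Cpe, which trims the basic residues from cleaved peptides, had 478 and 875 TPM in N/D and 955 and 292 TPM in N/D/S. Scg5, a chaperone of the convertase encoded by Pcsk2, was the steadiest of those named, at 345 and 401 TPM in N/D and 342 TPM in each N/D/S library. Pcsk1n, an inhibitor of the convertase encoded by Pcsk1, had 186 and 213 TPM in N/D and 139 and 417 TPM in N/D/S.

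All 20 genes of the G protein and cyclic AMP list passed the filter, with 0 called and a median log2 difference of −0.13, or −0.57 without N/D replicate 1. That median rose above 0, to 0.31, when N/D/S replicate 2 was the library dropped. It was −0.70 with N/D/S replicate 1 dropped and −0.03 with N/D replicate 2 dropped. The most abundant members of the list are used by most cells. Gnas, the stimulatory G protein subunit, had 1117 and 1355 TPM in N/D and 1223 and 607 TPM in N/D/S, and Ppp1ca, the catalytic subunit of the phosphatase that DARPP-32 inhibits, had 742 and 602 TPM in N/D and 813 and 1028 TPM in N/D/S. Ppp1ca was thus at 602 TPM or more in every library while Ppp1r1b did not pass 4.41 TPM. Genes of the list that are enriched in the striatum, all named after their values were seen, differed among themselves in N/D replicate 1. Adcy5, the adenylyl cyclase of medium spiny neurons, was listed at 0 in N/D replicate 1 and had 4.55, 3.74 and 1.68 TPM in the other libraries, and Rgs9, a regulator of G protein signalling, had 0, 5.08, 3.70 and 2.93 TPM in the same order. These were the only 2 of the 20 genes listed at 0 there. The phosphodiesterase gene Pde10a was at 0.017 TPM in N/D replicate 1 and at 7.01 to 14.1 TPM in the other libraries. By contrast, the phosphodiesterase gene Pde1b had 30.2 TPM in N/D replicate 1 and 10.7 to 47.4 TPM elsewhere, and Gnal, the G protein subunit that couples Drd1 to adenylyl cyclase, 9.93 TPM there and 0.23 to 10.5 TPM elsewhere. Gng7, the subunit gamma that partners with it, had 25.3 TPM and Arpp21, a cyclic AMP-regulated phosphoprotein, 40.1 TPM in N/D replicate 1, above each of the other libraries.

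The list of striatal projection neuron factors and markers held both abundant and low genes. Of its 16 genes 15 were found and 14 passed the filter, 0 were called, and 11 of 14 had a log2 difference above 0, against 61.4% of all genes tested. Without N/D replicate 1 that number was 3 of 14, and the median moved from 0.55 to −0.34, while that of all genes moved from 0.26 to −0.29. Isl1, a factor of direct pathway and cholinergic neurons, had 1.26 and 63.2 TPM in N/D and 151 and 20.3 TPM in N/D/S. Sp9, a factor of indirect pathway neurons that is also used in the medial eminence, was listed at 0 in N/D replicate 1 and had 37.4 TPM in N/D replicate 2 and 31.4 and 11.5 TPM in N/D/S. Meis2 and Ebf1, factors of the lateral eminence and its direct pathway neurons, were higher in both replicate 1 libraries, and Six3 and Gpr6, named after their values were seen, in both replicate 2 libraries, each 2 of 15 beside 13.3% and 12.8% of all genes. Meis2 had 74.8 TPM (N/D) and 80.2 TPM (N/D/S) in the replicate 1 libraries against 13.4 and 3.74 TPM in the replicate 2 libraries, and Ebf1 41.0 and 45.4 TPM against 6.99 and 2.31 TPM. In N/D replicate 1, then, Meis2 and Ebf1 were abundant while Drd1 and Pdyn were listed at 0, as were 61.7% of genes at the level of either. Most of the list was low in that library, with 8 of 15 genes listed at 0. There, 11 of 15 were below every other library, against 39.6% of genes above 0 in at least 1 library. Tac1, the substance P precursor of direct pathway neurons and named after its values were seen, was listed at 0 in N/D replicate 1 and had 14.9, 33.5 and 15.5 TPM in the other libraries, above both Drd1 and Pdyn in each.

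**Figure D4:**
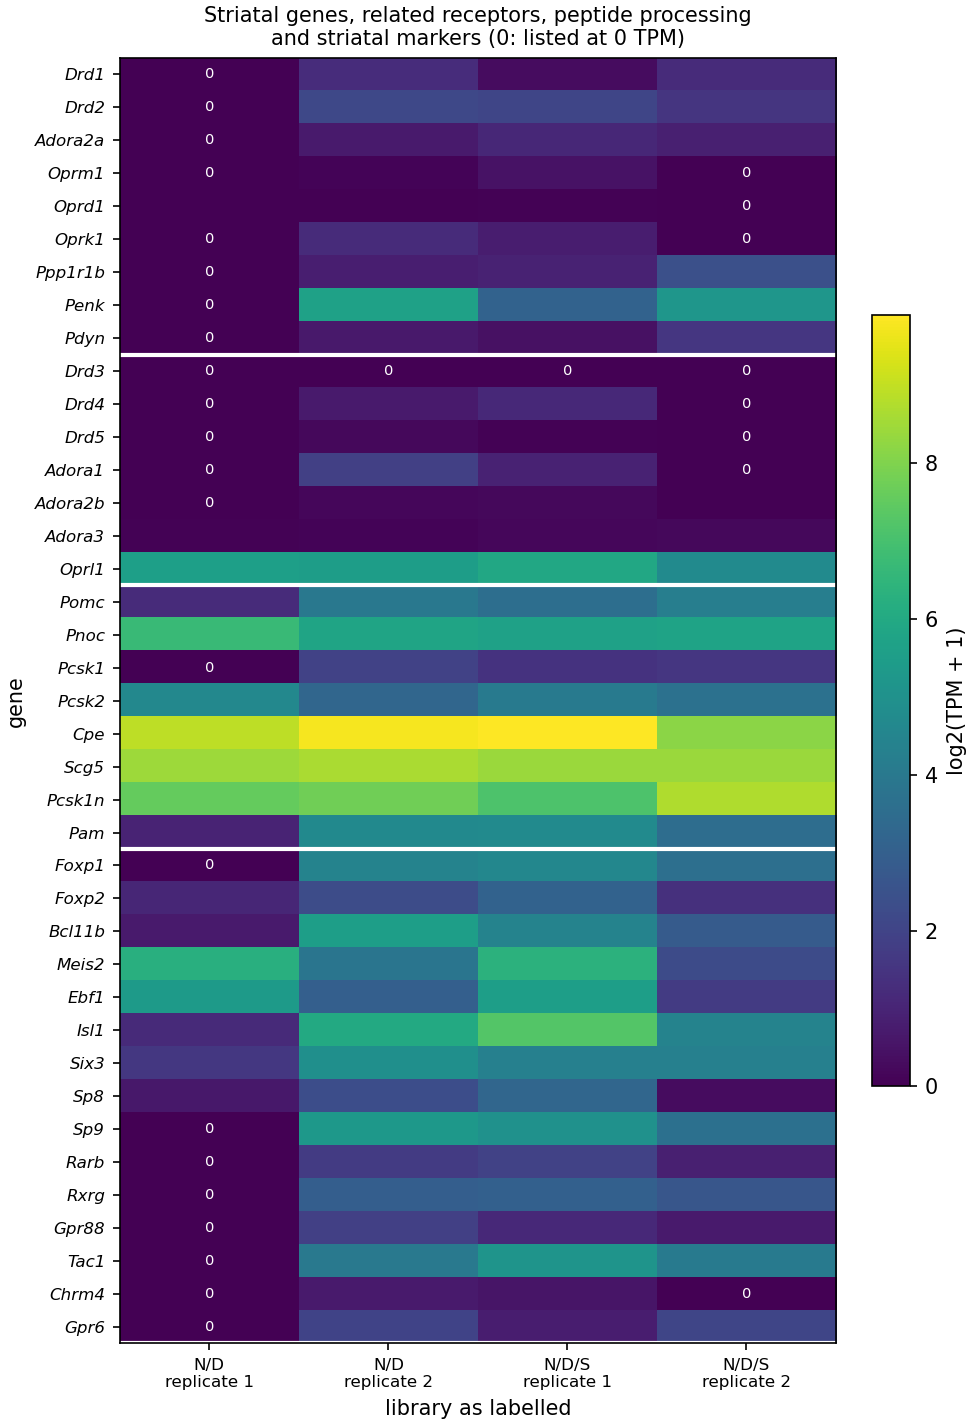
Levels as log2(TPM + 1) of the 9 genes, other receptors of their families, peptide precursors and processing genes, and striatal factors and markers (blocks from top to bottom, separated by white lines) in each library, with a 0 where a gene is listed at 0 TPM. Receptor genes other than Oprl1 are at the low end of the scale, the processing genes Cpe, Scg5 and Pcsk1n reach at least 139 TPM in every library, and most zeros fall in N/D replicate 1.

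Genes for the synthesis of dopamine, the ligand of Drd1 and Drd2, were present in the cultures. Th, the rate-limiting enzyme of dopamine synthesis, had 204 and 72.9 TPM in N/D and 396 and 62.1 TPM in N/D/S, and Ddc, the next enzyme, had 0.87 and 72.3 TPM in N/D and 134 and 34.5 TPM in N/D/S. The dopamine transporter gene Slc6a3, a defining marker of midbrain dopamine neurons and named after its values were seen, did not exceed 0.0068 TPM in any library. Of these 4 markers, with Slc18a2, 3 passed the filter and 0 were called.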

How the data were processed

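Bulk RNA-seq of sorted tdTomato+ neurons was analysed, with 2 libraries each for N/D and N/D/S. According to the methods and the submitters' processing notes, the authors pseudoaligned paired-end reads of poly-A selected RNA with kallisto 0.44.0 to the mouse transcriptome (GRCm38; release not given in the sources used here) and deposited 1 TPM value per gene symbol and library. How transcripts were combined is not stated, and depth is unknown. The files were joined on the 34968 symbols that all of them list, and 26 rows per file whose symbols had become dates were left out. The 12975 genes that reached 1 TPM in 2 or more libraries were fitted with limma 3.58.1 in R 4.3.3 on log2(TPM + 1), without covariates, with Benjamini-Hochberg adjustment over all genes and a threshold of 0.05. The code of the fit was run on simulated data with independent normal noise and no library with many genes at 0. That check does not speak for its performance on these libraries. Sleuth, used in the study, needs files not used here. Fold changes on this scale understate changes of low genes. Genes named are the 9 studied and, of each list, up to 4 with the highest mean TPM (at least 1), the 3 factors introduced in the lines and the 3 genes nearest to Penk; any other is marked as named after its values were seen. Members and lists were chosen with earlier results of these data known, and 1 marker gene is not reported here. Same-numbered libraries, after line means were removed, correlated at 0.02 across genes, a value that the zeros of N/D replicate 1 enter. Whether a number marks a shared batch is not stated and was not tested, and the numbers were not treated as pairs. Python 3.11.15, numpy 2.4.6, pandas 2.3.3 and matplotlib 3.10.9 were used for tables and figures. Alternatives were pseudocounts of 0.1 and 0.5, other filters, scalings and variance models, a natural log scale, a replicate block and each library left out.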

Additional observations from a re-analysis of the deposited data

How the results depend on the processing

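Over 14 alternatives to the setting reported, 290 values were computed for 22 results. Of these, 272 gave the same call and sign or, where there was no test, moved by less than the spread between libraries. A further 12 moved, 5 values of tested genes changed direction and 1 passed the threshold. Changes of direction were counted only for tested genes, so the 272 include untested genes and list medians whose sign turned. For the changes given here the cause was not tested. The genes past an adjusted p of 0.05 by limma with Benjamini-Hochberg adjustment were 0 higher and 0 lower except in 2 cases: with a variance trend, 5 were higher and 1 lower, and with one library left out the counts ranged from 0 to 2213 higher and from 0 to 160 lower, all of these calls coming without N/D replicate 2. Penk, Drd2 and Drd1, the genes of the 9 with a test, were not called with the variance trend.

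Penk ranged from 0.46 to 2.89 on the log2 scale with all libraries and from −1.53 (without N/D replicate 1) to 4.15 with one left out. Drd2 ranged from 0.15 to 2.10 and from −0.36 (without N/D replicate 1) to 1.80. Drd1 ranged from −0.20 (quantile normalization) to 0.83 and from −0.51 (without N/D replicate 1) through −0.32 (without N/D/S replicate 2) to 0.76. With a pseudocount of 0.1 in place of 1, the differences of Adora2a, Ppp1r1b and Pdyn rose to 2.00, 2.85 and 1.87. Those of Oprm1 and Oprd1 rose to 0.74 and 0.13. Quantile normalization moved the median of all genes from 0.26 to −0.05, and a filter of at least 1 TPM in every library, which none of the 9 genes passed, to −0.15. With the replicate block, 0 genes were called, and Penk was at 1.31 with a standard error of 1.42 (limma unadjusted p = 0.382 and adjusted p = 1); the block changed no call. Quantile normalization was applied to genes past the filter, so the 6 others have no value there. The limit that sequencing depth sets on low values cannot be given from TPM.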
